A study of Homo sapiens with 6 samples.

Results

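The centromere and centrosome genes measured here were 70 genes of 14884 in all. They were chosen by gene symbol, which had to begin with CENP, CEP and a digit, HAUS and a digit, TUBG, NEK and a digit, SPC2, BUB1 or AURK, antisense genes left out. Where a gene had several probe sets, the brightest one on average represented it, and 69 of the 70 had a single probe set. The rule found 17 CENP genes, 38 CEP genes, 10 NEK genes and 5 genes of the BUB1 and Aurora families. No gene named HAUS, TUBG or SPC2 was analysed here, where probe sets with no gene symbol or with more than 1 were left out. The symbols do not all stand for proteins: 66 were protein-coding, 3 were transcribed pseudogenes (CENPBD2P, CEP170P1 and CEP192P1) and 1, CEP83-DT, was a long non-coding RNA.

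The RNA came from Hs578T, an established human breast cancer cell line with a mesenchymal look and no oestrogen receptor, grown with serum and insulin. The siCSRP2 group had received a small interfering RNA against CSRP2, which encodes an actin-bundling LIM domain protein, and the siControl group a non-targeting RNA. Both had been exposed to the same lipid transfection reagent. Cells were moved to a smaller plate 24 h after transfection and lysed 48 h later, and each group had 3 arrays (Affymetrix HuGene 2.0), numbered 1 to 3. The labels do not say whether the 3 were separate cultures, so p-values may measure technical spread alone. 1 cell line and 1 time point limit the groups as a model of CSRP2 loss.

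The centromere is the stretch of each chromosome on which the kinetochore is built, the protein assembly that grips spindle microtubules. CENP-A replaces a histone there, the constitutive centromere-associated network (CCAN) of other CENP proteins binds it, and BUB1 and the Aurora kinases watch over attachment. The centrosome, a pair of centrioles in a protein matrix, nucleates microtubules. CEP proteins build and duplicate it or, in resting cells, help turn a centriole into the base of a cilium. Several NEK kinases (relatives of the fungal mitotic kinase NIMA) separate centrosomes and help form the spindle. Transcripts of some of these genes peak in G2 and mitosis, so the level of those transcripts in a culture can follow the share of dividing cells. In RNA of a whole culture, fewer dividing cells and less RNA per cell cannot be told apart.

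The promoters of the genes that moved are shown first, since genes of G2 and mitosis are known to share 2 short elements. These are the cell cycle genes homology region (CHR), searched as TTTGAA and TTTAAA, and the NF-Y box, searched as CCAAT, on both strands, and none of these motifs contains another. RefSeq promoters (GRCh38.p14), 250 bases before to 50 after the start listed first for a gene, matched 58 of the 70 genes. TTTGAA lay in 17 of the 58 (29.3%), against 11.8% of the 10749 promoters of all genes tested, and CCAAT in 31 (53.4%), against 36.0%. TTTAAA lay in 4 (6.9%), against 9.01%. Over every promoter in the table, 27305 in number, the shares were 15.4%, 35.7% and 12.3% in the same order of motifs. A match shows only that the letters are there.

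4 promoters are printed, from 250 bases before to 10 after the start, with matches in capitals. CEP89 had the largest difference of the 70 genes, CEP55 and BUB1 were the genes of known mitotic expression that fell, and CENPX held the NF-Y box 5 times. They lie at chr19:32971949-32972208 (minus strand), chr10:93496362-93496621 (plus), chr2:110678054-110678313 (minus) and chr17:82022869-82023128 (minus), for CEP89, CEP55, BUB1 and CENPX in that order.
CEP89: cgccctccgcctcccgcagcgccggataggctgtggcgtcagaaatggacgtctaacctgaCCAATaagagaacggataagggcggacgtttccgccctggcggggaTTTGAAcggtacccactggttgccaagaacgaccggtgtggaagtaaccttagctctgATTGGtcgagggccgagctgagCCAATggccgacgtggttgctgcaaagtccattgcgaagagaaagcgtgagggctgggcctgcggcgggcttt
CEP55: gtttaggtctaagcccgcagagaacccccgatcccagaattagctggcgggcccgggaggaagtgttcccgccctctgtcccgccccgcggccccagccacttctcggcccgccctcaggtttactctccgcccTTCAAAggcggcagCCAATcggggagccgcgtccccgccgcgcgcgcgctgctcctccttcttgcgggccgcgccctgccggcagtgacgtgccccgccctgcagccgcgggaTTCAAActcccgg
BUB1: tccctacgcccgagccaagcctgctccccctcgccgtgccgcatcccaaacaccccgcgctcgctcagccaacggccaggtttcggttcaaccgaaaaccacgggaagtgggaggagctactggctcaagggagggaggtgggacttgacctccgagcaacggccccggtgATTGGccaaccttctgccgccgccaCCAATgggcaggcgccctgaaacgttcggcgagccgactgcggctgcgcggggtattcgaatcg
CENPX: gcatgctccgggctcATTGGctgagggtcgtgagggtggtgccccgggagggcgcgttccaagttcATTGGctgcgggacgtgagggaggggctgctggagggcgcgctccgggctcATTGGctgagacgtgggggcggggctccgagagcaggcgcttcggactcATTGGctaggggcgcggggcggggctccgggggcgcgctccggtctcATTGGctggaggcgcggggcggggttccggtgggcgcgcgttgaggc
CENPX held 5 copies of the reverse form of CCAAT, the leftmost base of each at -235, -184, -133, -84 and -37 from the start. CEP55 held TTTGAA in its reverse form at -116 and across the start at -3, with a CCAAT at -102. BUB1 held 2 NF-Y boxes, at -79 and -54, and no TTTGAA or TTTAAA in this window. CEP89 held TTTGAA at -143 and NF-Y boxes at -189, -85 and -63. Of the 10 promoters of these genes that fell, 7 held CCAAT and 3 TTTGAA, and none TTTAAA. Among the 58 promoters of the whole set, 31 held CCAAT and 17 TTTGAA. Over all genes that fell, with 792 promoters, CCAAT lay in 37.2% and TTTGAA in 12.9%. Those shares were near the 36.0% and 11.8% of all genes tested. Whether either motif goes with a fall was not tested.

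On the arrays as a whole, siControl 3 lay between the groups. Over all probe sets it correlated with the siCSRP2 arrays at a mean r of 0.962 and with the other siControl arrays at 0.965. The target, CSRP2, measured 3.25, 3.76 and 4.26 on siCSRP2 arrays, against 3.69, 4.01 and 4.35 on siControl arrays (log2 values). Each siCSRP2 array lay below the siControl array of the same number (3 of 3 pairs), as was so for 26.6% of all genes. The groups overlapped and the difference did not pass (limma, adjusted p = 0.583, and 0.188 with the block), so the test of the target does not settle the labels. Of the markers of the line, the intermediate filament gene VIM averaged 7.22 on siCSRP2 and 8.04 on siControl arrays. ESR1, the oestrogen receptor gene, averaged 2.76 and 2.57 in the same order, and the immune marker CD14 averaged 2.64 in both, all below the median of gene means, 2.99. KRT18, a keratin of simple epithelia, averaged 7.37 on siCSRP2 and 8.11 on siControl arrays. Of the 7 mesenchymal markers measured 4 fell (57.1%, against 6.54% of all genes) and none rose. Of the 8 epithelial markers none passed (1, KRT18, was lower and none higher at an unadjusted p below 0.05). KRT18 fell with the block (adjusted p = 0.0635, and 0.00746 with the block).

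Setting siCSRP2 against siControl arrays asks what the RNA against CSRP2 changed in these transcripts. Among the 70 genes, 10 fell, none rose and 60 did not pass (limma across all 14884 genes, Benjamini-Hochberg adjusted p below 0.05). Over all genes, 6.54% fell and 0.8% rose, 7.34% in all. At an unadjusted p below 0.05, 31 of the 70 were lower and 2 higher. Of all 14884 genes, 2583 were lower (17.4%) and 940 higher. The log2 difference was below 0 for 55 of the 70, against 46.9% of all genes. The median difference was -0.29 over the 70 genes and 0.02 over all genes, and single differences ran from -1.21 (CEP89) to 0.54 (CEP135). The groups did not overlap, with siCSRP2 lower, for 25 of the 70, beside 16.2% of all genes, and with siCSRP2 higher for 4 (CEP135, CEP83-DT, CEP85L and NEK5), beside 11.5%. By mean signal, 52 of the 70 lay in the brighter 50% of genes. In a fit of that brighter 50% alone, 12 of these 52 fell and none rose, where 15.3% of all 7442 genes fell and 2% rose (17.3% in all). There 44 of the 52 had a difference below 0, against 65.2% of all genes, and the median was -0.36 over the 52 and -0.15 over all genes.

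**Figure D1:**
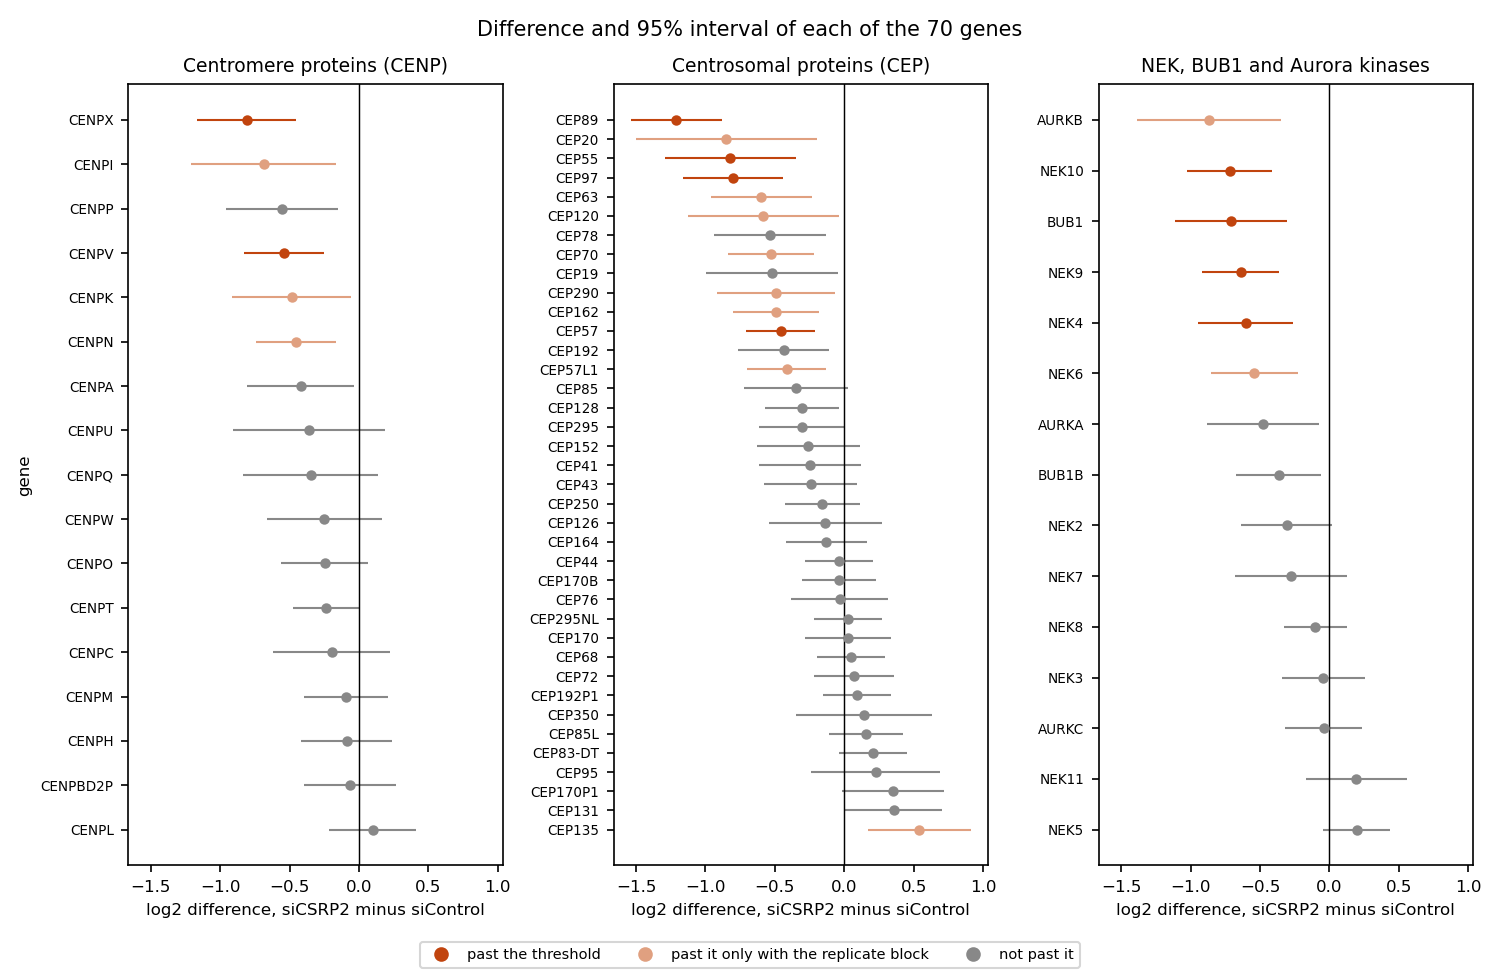
Log2 difference (siCSRP2 minus siControl, horizontal axis) with its 95% interval for each of the 70 genes, in panels by family. Dark points passed the test, light points passed with the replicate number as a block but not without it, and grey points passed in neither fit; 55 of the 70 points lie left of 0.

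How many of the 70 genes passed depended on single arrays. Without siControl 3, 27 fell and none rose, where 14.7% of all genes fell and 2.87% rose, 17.6% in all. Without siControl 1, siControl 2 or siCSRP2 2, CEP89 alone fell in each fit, 1.43% of the 70, where 1%, 0.578% and 1.22% of all genes fell in that order, shares near that of the 70. Without siCSRP2 3, 4 fell (5.71%), where 1.74% of all genes fell. Without siCSRP2 1, 5 fell (7.14%) and 1 rose (1.43%), near the 4.95% and 0.941% of all genes. Same-numbered arrays deviated together, and a fit that blocked on the number had 22 falls and 1 rise, of CEP135, where 13.1% of all genes fell and 2.67% rose (15.8% in all). All 10 that fell without the block also fell with it. CEP97, CENPX and NEK9 passed in 2 of the 6 fits that left 1 array out, NEK10 in 3, and BUB1, CENPV, CEP55, CEP57 and NEK4 in 1, that without siControl 3. After quantile normalization 5 fell (CENPV, CENPX, CEP89, CEP97 and NEK9) and none rose, where 4.47% of all genes fell and 1.41% rose, 5.89% in all.

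The same order of arrays showed in the medians. Relative to the siControl mean, the median over the 70 genes was -0.26, -0.27 and -0.31 on siCSRP2 1, 2 and 3, against 0.07, 0.07 and -0.16 on siControl 1, 2 and 3. siControl 3 lay nearer the siCSRP2 arrays than the other controls did. The median over all genes ran from -0.012 (siControl 3) to 0.014 (siControl 1). Proliferation markers moved the same way and further. Their median was -0.93, -0.75 and -1.07 on siCSRP2 arrays, against 0.22, 0.26 and -0.51 on siControl arrays. Of those 20 markers 11 fell (55%, against 6.54% of all genes) and none rose, and 18 fell with the block (90%, against 13.1%). They included the mitotic kinase CDK1 (-0.99), the nucleotide enzyme TYMS (-1.63), the G2 transcription factor FOXM1 (-1.23), TOP2A (-1.36), the helicase subunit MCM2 (-0.69) and the cyclin CCNE2 (-0.67). Their part in the values of the 70 genes was not tested.

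**Figure D2:**
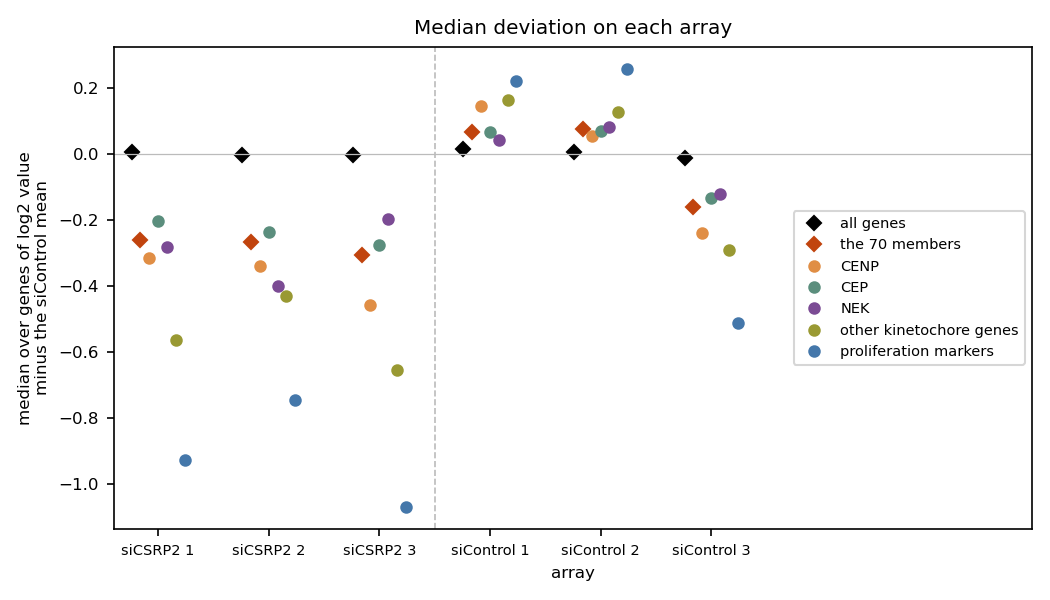
Median over genes of the log2 value minus the siControl mean (vertical axis) on each array (horizontal axis), for all genes, the 70 genes, 3 of their families and 2 lists of other genes. For the 70 genes, the siCSRP2 arrays lie between -0.31 and -0.26, siControl 1 and 2 lie at 0.07, and siControl 3 lies at -0.16.

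Of the 17 CENP genes, 2 fell (11.8%, against 6.54% of all genes) and none rose. With the block 5 fell (29.4%, against 13.1%), and without siControl 3 it was 7 (41.2%, against 14.7%). Their median difference was -0.35, and 16 of 17 differences were below 0, against 46.9% of all genes. In the fit of the brighter 50%, 1 of 12 CENP genes fell (8.33%), a smaller share than the 15.3% of all genes there. In that fit 11 of 12 CENP differences were below 0, against 65.2% of all genes. CENPX, which with CENP-S, CENP-T and CENP-W forms a histone-like complex of the CCAN and also acts in DNA repair, measured 3.51, 3.38 and 3.01 on siCSRP2 arrays, against 4.27, 4.12 and 3.93 on siControl arrays. All siCSRP2 values lay below all siControl values, a 1.75-fold fall (log2 difference -0.81, SE 0.16, limma adjusted p = 0.022). CENPV, a protein of the centromere and the spindle midzone, measured 2.62, 2.39 and 2.49 on siCSRP2 arrays, against 3.19, 3.10 and 2.85 on siControl arrays. It fell 1.46-fold (-0.54, SE 0.13, adjusted p = 0.0394), at a signal on siCSRP2 arrays below the median of gene means.

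CENPA, the histone variant that marks the centromere, measured 3.58, 3.95 and 4.08 on siCSRP2 arrays, against 4.50, 4.34 and 4.04 on siControl arrays. Its groups overlapped through siControl 3, and the difference of -0.42 (95% interval -0.81 to -0.04) did not pass (adjusted p = 0.171, and 0.157 with the block). Of the 14 measured CCAN genes with a CENP symbol, a subset drawn up with the values known, 13 had a difference below 0, with a median of -0.30. CENPX fell, 7.14% of the 14, near the 6.54% of all genes. With the block 4 fell (28.6%, against 13.1% of all genes), and without siControl 3 it was 6 (42.9%, against 14.7%). In the fit of the brighter 50%, 1 of 11 fell (9.09%, against 15.3% of all genes there). CENPI, CENPK and CENPN passed with the block and without siControl 3, and CENPL (0.10) was the gene of this subset with a difference above 0.

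CENPI, which with CENP-H, CENP-K and CENP-M links the inner to the outer kinetochore, measured 3.34, 3.26 and 2.78 on siCSRP2 arrays, against 4.12, 4.0 and 3.32 on siControl arrays. The lowest control, siControl 3, lay just below the highest siCSRP2 array, siCSRP2 1. The difference was -0.69 (SE 0.23), with an adjusted p of 0.107 and of 0.00599 with the block. CENPK of the same subcomplex measured 2.64, 2.66 and 2.40 on siCSRP2 arrays, against 3.08, 3.42 and 2.65 on siControl arrays. Again only siControl 3 reached into the siCSRP2 values, and the difference was -0.49 (adjusted p = 0.157, and 0.0385 with the block). CENPH differed by -0.09 and passed in neither fit, nor did CENPM, which averaged 2.49 on siCSRP2 and 2.59 on siControl arrays. CENPN, which contacts the CENP-A nucleosome together with CENP-L, measured 3.83, 3.83 and 3.73 on siCSRP2 arrays, against 4.12, 4.49 and 4.15 on siControl arrays. Its groups were apart (limma adjusted p = 0.066, and 0.035 with the block). Of the CENP genes of the subcomplex with CENP-O, differences were -0.55 for CENPP, -0.36 for CENPU, -0.35 for CENPQ and -0.25 for CENPO. None passed with or without the block. Without siControl 3, CENPP, whose groups were apart, and CENPU fell (limma adjusted p = 0.00357 and 0.0311). The remaining CENP genes, CENPC (-0.20), CENPT (-0.24), CENPW (-0.25) and the pseudogene CENPBD2P (-0.06), passed in neither fit.

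**Figure D3:**
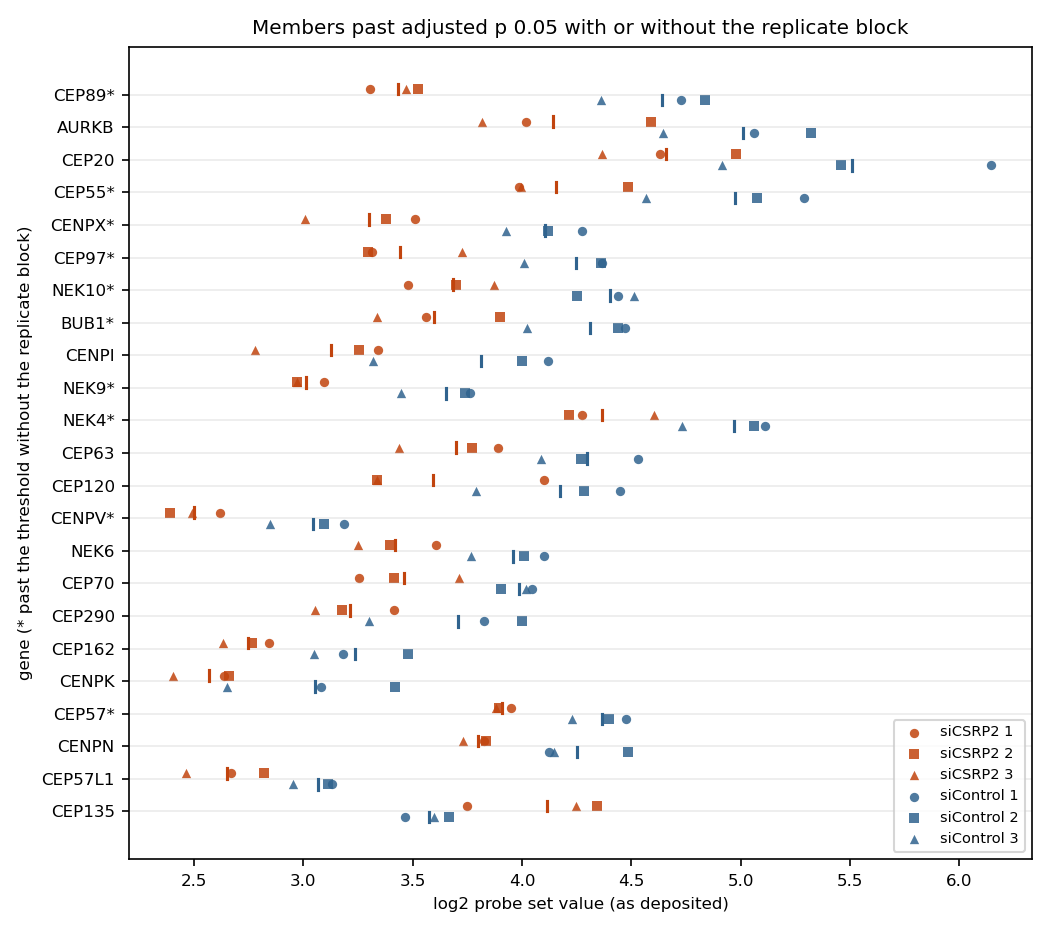
Log2 value on each array (horizontal axis; colour gives the group, symbol shape the replicate number, short bars the group means) for the 23 genes past the threshold with or without the replicate block, ordered by difference. In most rows siControl 3, the triangle of the control group, is the control nearest the siCSRP2 values, and CEP89 at the top has the widest gap between the groups.

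The 5 checkpoint and Aurora genes all had differences below 0, and 1 fell (20%, against 6.54% of all genes). BUB1, a kinase that holds the spindle checkpoint at the kinetochore, measured 3.56, 3.90 and 3.34 on siCSRP2 arrays, against 4.47, 4.44 and 4.02 on siControl arrays. The groups were apart, and the fall was 1.64-fold (-0.71, SE 0.18, limma adjusted p = 0.0469), a call lost after quantile normalization. AURKB, the kinase of the chromosomal passenger complex that corrects faulty attachments, measured 4.02, 4.59 and 3.82 on siCSRP2 arrays, against 5.06, 5.32 and 4.65 on siControl arrays. Its groups were just apart, and its difference of -0.87 (SE 0.23) missed the threshold at adjusted p = 0.0555 and passed with the block (0.00301).

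AURKA, the centrosomal Aurora kinase, measured 3.19, 3.79 and 3.61 on siCSRP2 arrays, against 4.02, 4.23 and 3.79 on siControl arrays. The groups met at siCSRP2 2 and siControl 3, and the difference of -0.48 (95% interval -0.88 to -0.07) did not pass (adjusted p = 0.141, and 0.0562 with the block). BUB1B, which encodes the checkpoint protein BUBR1, differed by -0.37 (95% interval -0.67 to -0.06) with groups apart (adjusted p = 0.138, and 0.0591 with the block). AURKC, the Aurora kinase of germ cells, averaged 2.66 on siCSRP2 and 2.71 on siControl arrays, both below the median of gene means, with a difference of -0.04. Probe sets of these related kinase genes could share signal, which was not tested.

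7 of the 70 genes were on a list of genes of known G2 and mitosis expression: AURKA, AURKB, BUB1, BUB1B, CENPA, CEP55 and NEK2. All 7 differences were below 0, from -0.87 (AURKB) to -0.31 (NEK2), with a median of -0.48. 2 of them fell (28.6%, against 6.54% of all genes), BUB1 and CEP55, and AURKB joined them with the block (42.9%, against 13.1%). Among the other 63 genes the median was -0.25, 48 differences were below 0, 8 fell (12.7%) and 19 fell with the block (30.2%). Of the 10 genes that fell, 8 were not on that list. Relative to the siControl mean, the median over the 7 genes was -0.75, -0.41 and -0.50 on siCSRP2 arrays, against 0.16, 0.10 and -0.25 on siControl arrays.

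Of the 38 CEP genes, 4 fell (10.5%, against 6.54% of all genes) and none rose. With the block 11 fell (28.9%, against 13.1%) and CEP135 rose. Their median difference was -0.24, and 26 of 38 were below 0, against 46.9% of all genes. In the fit of the brighter 50%, 5 of 29 CEP genes fell (17.2%), near the 15.3% of all genes there. In that fit 23 of 29 CEP differences were below 0, against 65.2% of all genes. CEP89, a protein of the distal appendages that anchor the mother centriole to the membrane when a cilium forms, measured 3.30, 3.53 and 3.47 on siCSRP2 arrays, against 4.73, 4.84 and 4.36 on siControl arrays. The groups were far apart, and the 2.31-fold fall (-1.21, SE 0.14, limma adjusted p = 0.00593) passed in each of the 6 fits that left 1 array out, with differences from -1.35 to -1.11. It was the only one of the 70 genes to do so. CEP164, another distal appendage protein, differed by -0.13 (95% interval -0.42 to 0.16) and did not pass.

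CEP97, which with CCP110 caps centrioles and holds back cilium formation, measured 3.31, 3.30 and 3.72 on siCSRP2 arrays, against 4.36, 4.36 and 4.01 on siControl arrays. It fell 1.74-fold (-0.80, SE 0.16, limma adjusted p = 0.023), with siCSRP2 3 and siControl 3 nearest each other. Its partner CCP110 differed by -0.14 (adjusted p = 0.62). CEP55, which despite its name serves mainly at the midbody in the final cut between daughter cells, measured 3.99, 4.48 and 3.99 on siCSRP2 arrays, against 5.29, 5.07 and 4.57 on siControl arrays. Its fall was 1.77-fold (-0.82, SE 0.21), with an adjusted p of 0.0489 that did not hold after quantile normalization. The highest siCSRP2 array, siCSRP2 2, lay just below siControl 3.

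CEP57, CEP63 and CEP152 form a ring around the centriole on which a new centriole is started. CEP57 measured 3.95, 3.90 and 3.88 on siCSRP2 arrays, against 4.48, 4.40 and 4.23 on siControl arrays. The siCSRP2 values were close together and below every control, a 1.37-fold fall (-0.46, SE 0.11, limma adjusted p = 0.0428), which did not pass after quantile normalization. CEP63 measured 3.89, 3.77 and 3.44 on siCSRP2 arrays, against 4.53, 4.27 and 4.09 on siControl arrays, with groups apart. Its difference of -0.60 missed the threshold (adjusted p = 0.0591), and passed with the block (0.00888) and without siControl 3 (0.0168). CEP152 differed by -0.26 (95% interval -0.63 to 0.11), with overlapping groups and no call in either fit. CEP57L1, a relative of CEP57, measured 2.67, 2.82 and 2.46 on siCSRP2 arrays, against 3.13, 3.11 and 2.95 on siControl arrays. Its groups were apart, and it fell with the block (adjusted p = 0.0841, and 0.0377 with the block).

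5 other CEP genes fell with the block but not without it. Of these, CEP20, CEP120, CEP162 and CEP290 also fell without siControl 3, and CEP70 without siCSRP2 3. CEP20, a centriolar satellite and ciliary protein also called FOPNL, measured 4.63, 4.98 and 4.37 on siCSRP2 arrays, against 6.15, 5.46 and 4.92 on siControl arrays. The controls spread widely, so that a difference of -0.85 had an SE of 0.29 (adjusted p = 0.112, and 0.0237 with the block), and it was -1.14 without siControl 3 and -0.53 at its nearest to 0 when 1 array was left out.

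CEP120, which works in centriole elongation, measured 4.10, 3.34 and 3.34 on siCSRP2 arrays, against 4.45, 4.28 and 3.79 on siControl arrays. The high siCSRP2 1 made the groups overlap (-0.58, limma adjusted p = 0.182, and 0.0263 with the block). CEP70, which binds gamma-tubulin, measured 3.25, 3.42 and 3.71 on siCSRP2 arrays, against 4.04, 3.90 and 4.02 on siControl arrays, with groups apart (-0.53, adjusted p = 0.0521, and 0.0265 with the block). CEP290 and CEP162 both work at the ciliary transition zone. CEP290 measured 3.41, 3.18 and 3.05 on siCSRP2 arrays, against 3.83, 4.0 and 3.30 on siControl arrays, and siControl 3 overlapped with siCSRP2 1 (-0.49, adjusted p = 0.15, and 0.0439 with the block). CEP162 measured 2.84, 2.76 and 2.63 on siCSRP2 arrays, against 3.18, 3.48 and 3.05 on siControl arrays, with groups apart (-0.49, adjusted p = 0.0658, and 0.0284 with the block).

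CEP135, a part of the cartwheel that gives the centriole its symmetry, went the other way. It measured 3.75, 4.34 and 4.25 on siCSRP2 arrays, against 3.46, 3.66 and 3.60 on siControl arrays. All siCSRP2 values lay above all siControl values, and the difference of 0.54 (SE 0.16) missed the threshold at a limma adjusted p of 0.0842, passed with the block (0.022) and passed without siCSRP2 1 (0.0238). CEP131, a centriolar satellite protein, differed by 0.36 and the pseudogene CEP170P1 by 0.35, and neither passed in either fit. CEP170 itself, a subdistal appendage protein, differed by 0.03. Since the pseudogenes of CEP170 and CEP192 resemble their parent genes, a probe set of one could carry signal of the other, which was not tested.

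CEP192, a scaffold that recruits Aurora A and PLK4, averaged 3.05 ± 0.03 on siCSRP2 and 3.49 ± 0.27 on siControl arrays (SD, n = 3), with groups apart and a difference of -0.44 (limma adjusted p = 0.105, and 0.0505 with the block). CEP19 (-0.52) and CEP78 (-0.53) also had groups apart without passing. CEP43 and CEP350, which act with CEP19 early in cilium formation, differed by -0.24 and 0.14 with overlapping groups. The other 16 CEP genes lay between -0.35 (CEP85) and 0.23 (CEP95) and passed in neither fit: CEP41, CEP44, CEP68, CEP72, CEP76, CEP83-DT, CEP85, CEP85L, CEP95, CEP126, CEP128, CEP170B, CEP192P1, CEP250, CEP295 and CEP295NL. The lowest signal among the CEP genes was that of CEP85L, at 2.31, 2.33 and 2.61 on siCSRP2 arrays, against 2.27, 2.31 and 2.20 on siControl arrays.

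Of the 10 NEK genes, 3 fell (30%, against 6.54% of all genes) and none rose. With the block 4 fell (40%, against 13.1%), and the median difference was -0.29. NEK9 heads a mitotic cascade in which it activates NEK6 and NEK7. It measured 3.09, 2.97 and 2.97 on siCSRP2 arrays, against 3.76, 3.74 and 3.45 on siControl arrays. The groups were apart and the siCSRP2 values close together, a 1.56-fold fall (-0.64, SE 0.12, limma adjusted p = 0.021). NEK6 measured 3.61, 3.40 and 3.25 on siCSRP2 arrays, against 4.10, 4.01 and 3.77 on siControl arrays. Its difference of -0.54 lay just outside the threshold at adjusted p = 0.0502 and passed with the block (0.0124). NEK7 measured 4.85, 5.26 and 5.56 on siCSRP2 arrays, against 5.43, 5.43 and 5.63 on siControl arrays. The groups overlapped, and its difference of -0.28 (95% interval -0.68 to 0.12) did not pass (limma adjusted p = 0.38).

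NEK10, a kinase with roles in the DNA damage checkpoint and in airway cilia, measured 3.48, 3.70 and 3.87 on siCSRP2 arrays, against 4.44, 4.25 and 4.51 on siControl arrays. Here siControl 3 was the highest control and not the lowest. The fall was 1.65-fold (-0.72, SE 0.13, limma adjusted p = 0.0197) and passed in 3 of the 6 fits that left 1 array out, though not after quantile normalization. NEK4, which has been tied to the DNA damage response and to cilia, measured 4.28, 4.22 and 4.60 on siCSRP2 arrays, against 5.11, 5.06 and 4.73 on siControl arrays. It fell 1.52-fold (-0.60, SE 0.15, adjusted p = 0.0469), a call also lost after quantile normalization. NEK2, which splits the link between centrosomes before mitosis, measured 3.19, 2.73 and 3.08 on siCSRP2 arrays, against 3.37, 3.39 and 3.16 on siControl arrays, and the groups overlapped (-0.31, adjusted p = 0.241). NEK3 (-0.04), NEK5 (0.20), NEK8 (-0.10, groups apart) and NEK11 (0.19) passed in neither fit.

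Other genes of the same structures were read from lists that hold none of the 70. Of 22 measured kinetochore and centromere genes, 7 fell (31.8%, against 6.54% of all genes) and none rose, with a median of -0.50. With the block 13 of the 22 fell (59.1%, against 13.1%). The 7 included BIRC5 (survivin of the passenger complex, -1.0, adjusted p = 0.00644), CDC20 (-1.31), which the checkpoint holds back until chromosomes are attached, the microtubule-binding NDC80 (-0.97), the dynein adaptor SPDL1 (-1.07), the checkpoint kinase TTK (-0.78), and HJURP (-0.78), which loads CENP-A. Of 19 spindle regulators, 7 fell (36.8%) and none rose, with a median of -0.47, and 9 fell with the block (47.4%). They included NUSAP1 (-1.09), the microtubule polymerase CKAP5 (-0.85) and the kinesins KIF18A (-0.83), KIF2C (-0.95) and KIF11 (-1.38), and HMMR (-0.95).

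Of 23 other centrosome and centriole genes, 3 fell (13%, against 6.54% of all genes) and none rose, with a median of -0.20. With the block 6 of the 23 fell (26.1%, against 13.1%). In the fit of the brighter 50%, 21.1% of this list fell, where 15.3% of all genes fell. The share there was 45% for the kinetochore list and 42.1% for the spindle list. PLK4, the kinase that starts centriole duplication, averaged 2.91 on siCSRP2 and 3.68 on siControl arrays (-0.77, limma adjusted p = 0.021). PCM1, the scaffold of centriolar satellites, averaged 4.73 on siCSRP2 and 5.46 on siControl arrays (-0.74, adjusted p = 0.0225), and the satellite gene KIAA0753 differed by -0.59 (adjusted p = 0.0427). SASS6, the cartwheel protein that works beside CEP135, differed by 0.42 with groups apart and did not pass (adjusted p = 0.132). Of the 23 differences 18 were below 0. The lowest was that of STIL, at -0.90 with groups apart (limma adjusted p = 0.0514, and 0.00964 with the block).

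**Figure D4:**
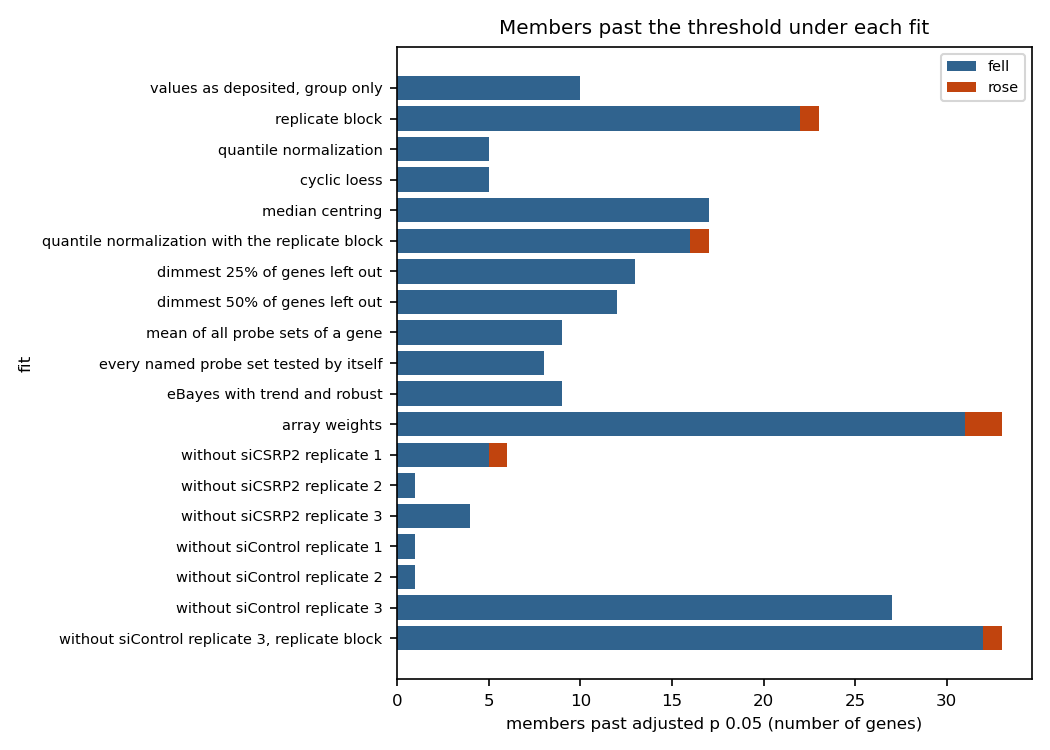
Number of the 70 genes that fell (blue) or rose (orange) past the threshold (horizontal axis) under each fit (rows). The number is 10 on the values as deposited and ranges from 1, when siControl 1, siControl 2 or siCSRP2 2 is left out, to 33 with array weights.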

How the data were processed

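Total RNA of 6 Hs578T samples, 3 given siCSRP2 and 3 siControl, was hybridised to arrays. Groups and replicate numbers came from the sample titles. The authors deposited log2 values, 1 for each array and probe set, and the range of the values is the basis for that scale. The submitters' processing notes name Partek. How background, summarisation and normalization were handled is not given in the sources used here, nor is a genome build.

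Of 53617 probe sets, 16098 had a gene symbol in the platform's annotation table, which gave 14884 genes. 37519 were unnamed here. The tests used limma 3.58.1 under R 4.3.3 (lmFit, eBayes, two-sided, group as the only term). P-values were adjusted by Benjamini and Hochberg's method across all genes, and calls made below 0.05. There was no filter on dim genes. The fit was tested on simulated data. The number of arrays limits the precision, and no detection calls were used.

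Same-numbered arrays correlated in their deviations from the group means across genes at 0.305, 0.187 and 0.321, so the numbers are read as pairs, on the data and not the labels. Reported differences, errors and calls are from the fit without the block, and the blocked value stands beside a call that it changed. Alternatives were the replicate block, 3 scalings, 2 filters, probe set summaries, moderation with trend, array weights and each array left out.

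The genes, lists and subsets were chosen with earlier results of these data known. Named with values were genes past the threshold with or without the block, the brightest and dimmest of each family, the Aurora paralogs, CSRP2 and up to 6 called genes of each other list by smallest adjusted p. The remaining genes are given by difference. Any further detail on these, CCP110, SASS6, STIL and the CCAN subset were added after the values were seen.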

Additional observations from a re-analysis of the deposited data

How the results depend on the processing

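As reported, 10 of the 70 genes and 1093 of all genes passed, and the median over the 70 was -0.29. With the replicate block, 23 of the 70 and 2348 of all genes passed. After quantile normalization or cyclic loess, 5 of the 70 passed (CENPV, CENPX, CEP89, CEP97 and NEK9), with 876 and 884 of all genes. After median centring 17 of the 70 and 1557 of all genes passed, and 17 of the 70 and 2010 of all genes after quantile normalization with the replicate block. With array weights, 33 of the 70 and 2924 of all genes passed. Leaving out 1 array gave 1 to 27 of the 70 and 91 to 2620 of all genes. Without siControl 3 and with the replicate block, chosen after seeing the data, 33 of the 70 and 3519 of all genes passed. The cause of these changes was not tested. Of the calls over all genes, 89.1% were falls as reported, against 76.0% (quantile), 77.7% (cyclic loess) and 94.5% (median centring), and no scaling moved the median of all genes by as much as 0.1. The count was within 1.5 times the reported one in the fits that follow, though the share of all genes that passed differed between them. Without the dimmest 25%, 13 of 67 passed (19.4%, against 10.8% of all genes). Without the dimmest 50% it was 12 of 52 (23.1%, against 17.3%). The mean of all probe sets gave 9 of the 70 (12.9%, against 7.05%). Testing every probe set gave 8 (11.4%, against 6.98%), and trend and robust moderation 9 (12.9%, against 7.19%). The median over the 70 stayed below 0 in every fit, from -0.38 to -0.25. None of the 23 genes past the threshold with or without the block changed sign under any alternative. CEP89, CEP97, CENPX and NEK9 passed in all 11 alternatives that kept every array, and CENPV in the 10 that tested it. In a promoter window of 150 bases, TTTGAA lay in 22.4% of the 58 promoters, against 4.75% of those of all genes tested, and CCAAT in 41.4%, against 23.1%. A dim probe set has no marked limit here, so a difference at low signal can understate the change.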
